A study of Mus musculus with 18 samples.

Results

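The comparison described here sets 3 mouse libraries treated with an agonist of the receptor FZD6 against 3 control libraries kept with CHIR99201 (CHIR below), which makes 6 of the 18 libraries of the series. Members were chosen by their labelled treatment alone. All 18 libraries came from cells labelled as alveolar type 2 cells of mouse lung that had been grown for 19 days with CHIR, which the series calls a Wnt agonist. Every library also carried the label LGK974, or belonged to a withdrawal group whose treatment text names it. The CHIR libraries were LGK974 plus CHIR, and the FZD6 agonist libraries were LGK974 plus the agonist, with CHIR taken away, and the stated exposure was 8 to 12 h. The agonist's nature and dose, the mouse strain and age, and the number of animals or cultures behind the libraries are not stated in the sources used here. Each p-value below therefore measures only the spread between libraries, which may be technical. The 2 groups differ both in the presence of the agonist and in the absence of CHIR, and these effects cannot be told apart in this comparison.

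Alveolar type 2 cells are the surfactant-producing cells of the lung alveolus and can give rise to the flat alveolar type 1 cells that line the gas-exchange surface. Wnt ligands bind Frizzled receptors such as FZD6 together with co-receptors, and in the canonical branch this stops a destruction complex, which contains GSK3, from degrading beta-catenin, so that beta-catenin can act with TCF and LEF factors on target genes such as Axin2. CHIR compounds inhibit GSK3 and so act downstream of the receptors, while LGK974 blocks porcupine, the enzyme that cells need to lipidate and release their own Wnt ligands.

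Before any difference between the groups, the libraries have to be described, because they are unlike each other within a group. Depth was even, at 34458610 to 43631637 counts in genes, so that 3 counts equal 0.0661 to 0.0821 CPM, the unit used below, which gives a gene's counts relative to the normalised library size. Values are given in the order CHIR 1, 2 and 3 and then FZD6 agonist 1, 2 and 3. The 22 markers of alveolar type 2 cells were all found and summed to 143000, 80900 and 136000 CPM with CHIR and to 154000, 113000 and 117000 CPM with the agonist. Each of the 22 was above 1 CPM in all 6 libraries. Markers of airway club and secretory cells summed to 105, 119 and 1610 CPM and to 1830, 436 and 320 CPM, and the highest sums were those of CHIR 3 and FZD6 agonist 1. Genes of mitosis and G2/M summed to 3920, 3360 and 473 CPM and to 889, 2770 and 2450 CPM, which puts the same 2 libraries lowest. In such bulk libraries fewer cells of a type and less RNA per cell cannot be told apart. Xist, an X-linked RNA, had 812, 530 and 1 counts with CHIR and 0, 396 and 418 counts with the agonist. Ddx3y, a Y-linked gene, had 45, 39 and 62.7 CPM against 72.9, 40.5 and 40.8 CPM. CHIR 3 and FZD6 agonist 1 thus stand apart in more than airway and division genes, and the reason was not tested. FZD6 agonist 2 and 3 were close to each other, with a chi-square of 8.01 for each degree of freedom over gene counts, against 252 to 476 for every other pair within a group, where sampling noise alone would give about 1.

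**Figure D1:**
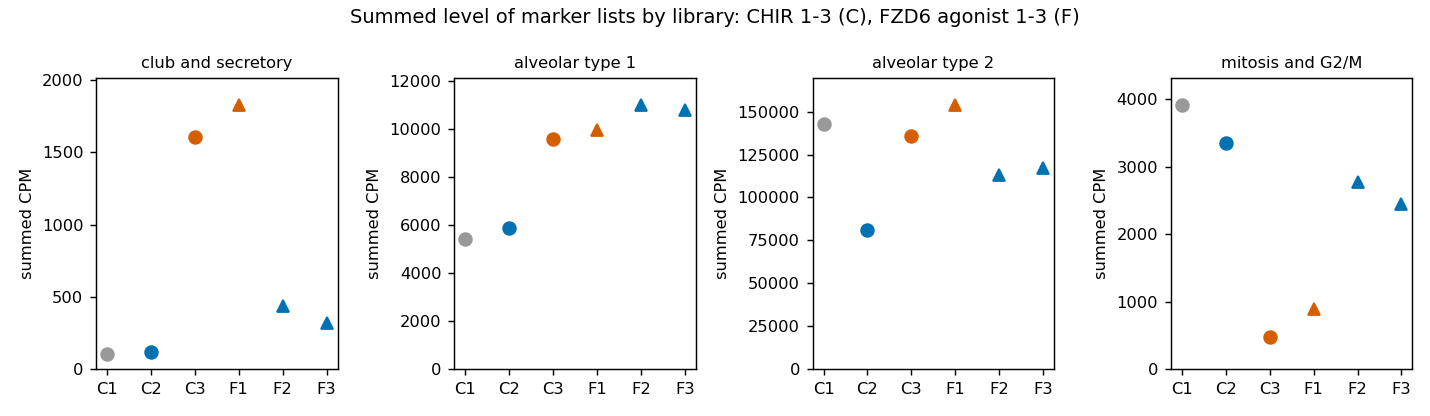
Summed CPM of the marker lists of club and secretory cells, alveolar type 1 cells, alveolar type 2 cells and mitosis (y axes, linear, from 0) in each of the 6 libraries (x axes, CHIR as circles and FZD6 agonist as triangles). Orange marks CHIR 3 and FZD6 agonist 1, which have the highest club and secretory sums (1610 and 1830 CPM) and the lowest mitosis sums (473 and 889 CPM), blue marks CHIR 2 with FZD6 agonist 2 and 3, and grey marks CHIR 1.

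For that reason each result is given in up to 3 ways. The first sets all 3 libraries against all 3. The second pairs like with like: FZD6 agonist 1 beside CHIR 3, both with airway genes (the CHIR 3 reading), and FZD6 agonist 2 and 3 beside CHIR 2 (the CHIR 2 reading). A matched test combines both readings in 1 model with a term for airway genes and leaves out CHIR 1, which is in neither reading. It also leaves out 24 h withdrawal 2, a library of another group that has airway genes and stays in the 3 against 3 fit. That library stood apart, with 31.3% of its total outside gene counts, 4.13% mitochondrial counts and a median correlation of 0.82 with the others. The matched test called 6 genes with both libraries kept, and 490 with CHIR 1 alone kept. A log2 fold change is positive where the gene was higher with the FZD6 agonist, and a gene is called where edgeR's quasi-likelihood test gave a Benjamini-Hochberg adjusted p under 0.05.

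With all 3 libraries against 3, 1 of 16497 tested genes was called, which is 0.00606% of them, and 1067 (6.47%, with 3.26% higher and 3.21% lower) had an unadjusted p under 0.05. The called gene was Crebrf, which encodes a regulator of CREB3 transcription factors and lies on chromosome 17 from 26715650 to 26776635, plus strand, in GRCm38. Its levels were 7.03, 5.89 and 10.7 CPM with CHIR and 23.8, 28.0 and 31.0 CPM with the agonist. Every agonist library was above every CHIR library. Crebrf rose by 1.81 on the log2 scale (SE 0.235), with an edgeR adjusted p of 0.0198. The call ended when CHIR 1, CHIR 2, FZD6 agonist 2 or FZD6 agonist 3 was left out, with adjusted p values of 0.199, 0.0944, 0.132 and 0.183 in that order, while the log2 fold change stayed between 1.64 and 1.80 in these fits. With the 6 libraries fitted alone its adjusted p was 0.911, and edgeR then called no gene. DESeq2 called 69 genes on the 18 libraries, Crebrf among them.

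Among all tested genes, 934 (5.66%) were higher in every agonist library than in any CHIR library and 937 (5.68%) were lower. Genes next to Crebrf by p were sought only among those without overlap between the groups and with a mean log2 CPM of at least 2. On the higher side, none of them called, they included Tuba8, an alpha tubulin. Tuba8 was at 1.12, 0.353 and 0.728 CPM with CHIR and 3.96, 7.36 and 6.20 CPM with the agonist. Mlc1, a membrane protein best known from glial cells, stood at 12.3, 20.1 and 21.8 CPM against 47.1, 42.3 and 38.0 CPM. Kcne2, an accessory subunit of potassium channels, stood at 20.1, 12.7 and 32.7 CPM against 43.3, 58.9 and 70.2 CPM. The adjusted p values of these 3 genes were 0.281, 0.487 and 0.556, and their lack of overlap follows from that choice. On the lower side the nearest genes by p, chosen in the same way, were Grwd1, Fastkd2, Steap1, Rrp9, Ddx55 and Ripk3. Their fitted log2 fold changes were -0.75 to -1.29, with adjusted p values of 0.556 to 0.558. Grwd1 had 72.1, 66.4 and 62.8 CPM with CHIR and 43.8, 38.6 and 32.5 CPM with the agonist, a fitted log2 fold change of -0.81 (SE 0.185, adjusted p 0.556).

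**Figure D2:**
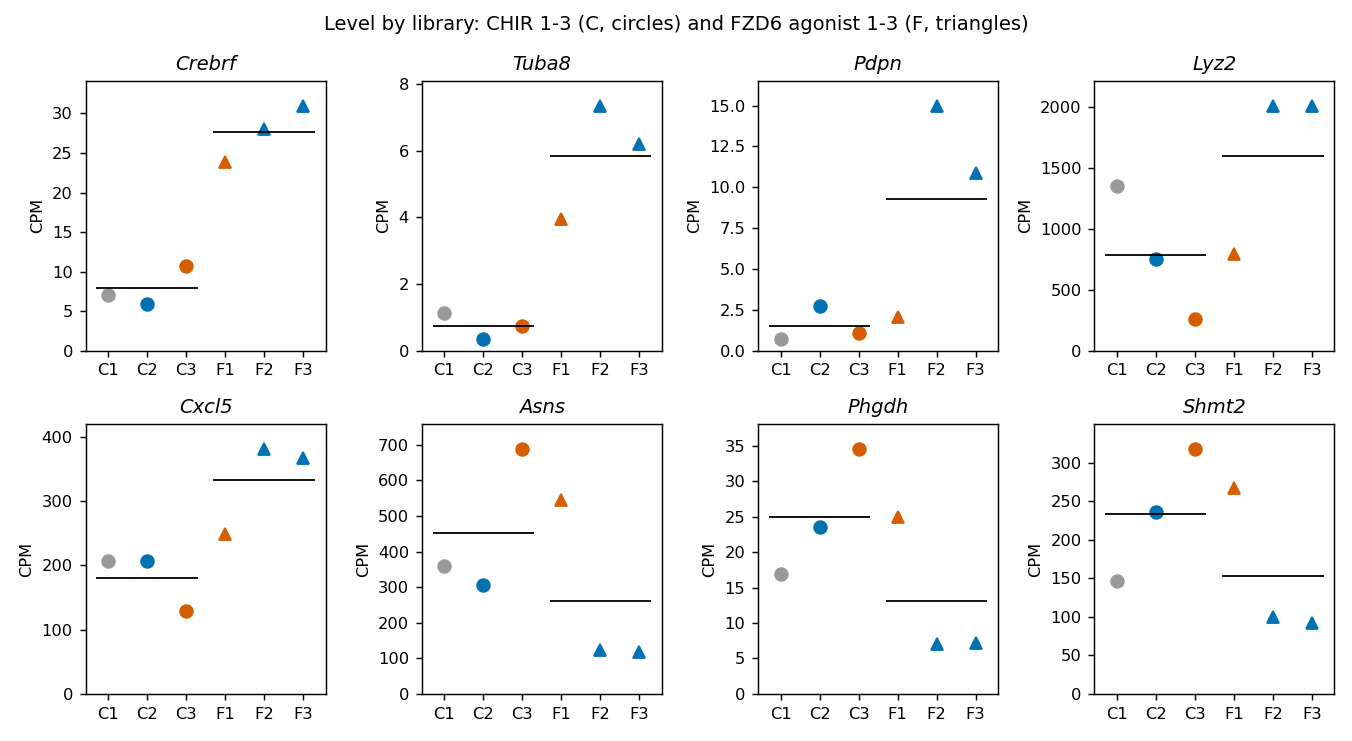
Level of 8 genes in CPM (y axes, linear, from 0) in each of the 6 libraries (x axes, CHIR as circles and FZD6 agonist as triangles), with horizontal lines at the group means and colours that pair CHIR 3 with FZD6 agonist 1 (orange) and CHIR 2 with FZD6 agonist 2 and 3 (blue). Crebrf and Tuba8 separate the groups in every library, while Lyz2, Asns, Phgdh and Shmt2 do so only when libraries of the same colour are compared.

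The matched test called 485 of 16797 genes, or 2.89%, of which 285 (1.70%) were higher with the agonist and 200 (1.19%) were lower. Of the 16797 genes 49.9% were fitted higher and 50.1% lower, and the counts for each list below stand against these shares. Within both pairings, 19.8% of all genes were higher in every agonist library than in its CHIR counterpart and 23.2% were lower. Most changes were small, since 73 of the 485 reached a change of 2-fold, 61 of them higher and 12 lower. None of the 485 differed in sign between the readings, but the matched test favours genes that change alike in both, so this is no separate support. The difference between the readings was itself called for 35 of them and for 4.26% of all genes tested. That share was 2.36% where the CHIR 3 reading was the higher and 1.91% where the CHIR 2 reading was. Of the sets of libraries in that difference only FZD6 agonist 2 and 3 hold more than a single library, so the spread comes mostly from other groups and each p compares these libraries, not the treatments. This test draws 2 of its 9 residual degrees of freedom from the 5 FZD6 agonist and CHIR libraries and the rest from the other groups, and with those 5 libraries alone it called 0 genes (1974 had an unadjusted p under 0.05). The fit without CHIR 2 rests on FZD6 agonist 1 beside CHIR 3 alone, and the fits without either of those rest on the CHIR 2 reading. Of the 57 called genes that were refitted with 1 library left out, 11 stayed called without CHIR 2, 48 without CHIR 3, 20 without FZD6 agonist 2 and 18 without FZD6 agonist 3. Without FZD6 agonist 1 it was 49 of 56.

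The list with the most calls on the lower side held enzymes, transporters and regulators of the integrated stress response and serine synthesis. This response is the program by which cells short of amino acids or under other stress raise the transcription factor ATF4, which in turn raises genes that make or import amino acids. Of 24 measured genes on this list, 6 fell and 0 rose in the matched test, where 1.19% of all genes fell and 1.70% rose. The median log2 fold change was -0.36 against 0.00 over all genes tested. In 17 of the 24 the agonist libraries were lower in both readings, against 4448 of 16797 over all genes.

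Phgdh, which catalyses the step that commits glycolytic carbon to serine, had 16.9, 23.6 and 34.6 CPM with CHIR and 25.0, 7.05 and 7.24 CPM with the agonist. FZD6 agonist 2 and 3 were below every CHIR library, while FZD6 agonist 1 lay within the CHIR range and below its counterpart CHIR 3. Phgdh fell by 1.19 on the log2 scale in the matched test (SE 0.214, adjusted p 0.0122). Psat1 and Psph, the next enzymes of the same route, showed the same order. Psat1 had 274, 230 and 277 CPM against 232, 108 and 104 CPM, and Psph had 65.3, 50.3 and 126 CPM against 111, 19.7 and 20.6 CPM. Shmt2, the mitochondrial enzyme that turns serine into glycine, had 146, 236 and 318 CPM against 267, 99.5 and 92.6 CPM. The changes of Psat1, Psph and Shmt2 were -0.75, -0.84 and -0.87 on the log2 scale, with adjusted p values of 0.0426, 0.0392 and 0.0226.

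Asns, the asparagine synthetase, had 360, 306 and 689 CPM with CHIR and 544, 124 and 118 CPM with the agonist. It fell by 0.93 on the log2 scale (SE 0.218, adjusted p 0.0438). Slc7a5, a carrier of large neutral amino acids, had 51.1, 300 and 529 CPM against 374, 134 and 131 CPM and fell by 0.89 (adjusted p 0.0438). In both genes the CHIR 2 reading held the larger step, at log2 ratios of -1.34 and -1.18, against -0.34 and -0.50 in the CHIR 3 reading. The difference between the readings was called for Phgdh, Shmt2 and Psph, at adjusted p values of 0.0273, 0.0145 and 0.0239, and not for Asns, at 0.15. Without CHIR 2 none of the 5 refitted genes (Phgdh, Psat1, Psph, Shmt2 and Asns) remained called, with adjusted p values of 0.342 to 0.724. Without FZD6 agonist 2 they ranged from 0.0608 to 0.143, and without FZD6 agonist 3 from 0.0588 to 0.147.

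Further genes of the response were not called. Atf4 itself had 113, 198 and 321 CPM with CHIR and 321, 129 and 136 CPM with the agonist, at an adjusted p of 0.393 in the matched test. Ddit3 (CHOP), a transcription factor tied to cell death under stress, had 36.6, 31.1 and 184 CPM against 119, 50 and 57.4 CPM, and its readings were of opposite sign, at -0.63 and 0.79. Genes called lower outside this list included Cth, which makes cysteine from cystathionine, and Gdf15, a secreted stress cytokine. Cth had 5.50, 5.86 and 79.9 CPM against 46.8, 0.903 and 1.15 CPM, and Gdf15 had 70.4, 46.6 and 231 CPM against 171, 14 and 15.8 CPM. The log2 changes were -1.65 for Cth (adjusted p 0.0379) and -1.13 for Gdf15 (adjusted p 0.0388). Without CHIR 2 they were -0.77 and -0.43 (adjusted p 0.372 and 0.545), and neither gene was called without FZD6 agonist 2 (0.126 and 0.138) or FZD6 agonist 3 (0.133 and 0.136).

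Promoters of 3 genes on the list are printed to show where they carry, or lack, the letters TGATGNAA, a form of the element that ATF4 binds with C/EBP partners. The letters were searched on both strands in windows of 300 bases, from 250 before to 50 after the gene's start, in RefSeq sequence of GRCm38.p6. They were found in 7 of the 22 list members that had a window, or 31.8%, and in 3.97% of all 32851 windows. Of these 7, Asns was called lower in the matched test, while Chac1, Trib3, Atf3, Slc7a11, Nupr1 and Pycr1 were not called. Phgdh, Psat1, Psph and Shmt2 were called lower and hold no match. Matches on either strand are in capitals, and each window is printed on the gene's own strand, 5′ to 3′. Asns (chr6:7693160-7693459, minus strand) fell and holds 1 match, whose first base is at -23 from the start. Phgdh (chr3:98339920-98340219, minus strand) fell and these letters are not in its window. Slc7a11 (chr3:50443564-50443863, minus strand), the cystine carrier, holds 2 matches, from -66 and -47, and was not called, with 46.5, 83.8 and 187 CPM with CHIR and 264, 68.3 and 78.8 CPM with the agonist.
Asns: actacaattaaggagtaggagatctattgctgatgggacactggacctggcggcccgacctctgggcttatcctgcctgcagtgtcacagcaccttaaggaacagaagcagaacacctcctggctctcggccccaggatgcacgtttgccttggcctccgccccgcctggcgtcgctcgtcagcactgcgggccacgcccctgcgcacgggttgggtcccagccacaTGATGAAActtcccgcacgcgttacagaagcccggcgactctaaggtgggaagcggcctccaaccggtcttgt
Phgdh: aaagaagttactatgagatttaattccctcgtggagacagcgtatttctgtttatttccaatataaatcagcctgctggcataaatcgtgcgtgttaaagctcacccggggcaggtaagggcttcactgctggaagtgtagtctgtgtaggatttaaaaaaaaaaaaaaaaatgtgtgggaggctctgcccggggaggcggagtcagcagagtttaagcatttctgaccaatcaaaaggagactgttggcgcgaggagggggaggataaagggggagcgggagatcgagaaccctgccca
Slc7a11: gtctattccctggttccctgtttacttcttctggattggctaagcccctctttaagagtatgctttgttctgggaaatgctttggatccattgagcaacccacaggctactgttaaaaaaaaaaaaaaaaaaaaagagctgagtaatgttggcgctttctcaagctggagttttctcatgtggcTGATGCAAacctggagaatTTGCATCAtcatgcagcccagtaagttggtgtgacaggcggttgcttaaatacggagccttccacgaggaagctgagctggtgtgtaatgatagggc
A match is a description of these letters and does not show a site in use.

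Genes of the canonical Wnt pathway were next, since the agonist replaced an inhibitor of GSK3. None of the 19 measured canonical targets was called in the matched test, 10 were fitted higher and 9 lower, and the median was 0.02. At an unadjusted p under 0.05 there were 2 higher and 1 lower, where 9.92% of all genes were higher and 8.95% lower. The 3 against 3 test called none of 16 either, with 2 higher and 0 lower at that level. Behind the matched median of 0.02 lay unlike readings. Beside CHIR 3 the median log2 ratio was 0.41, with 15 of the 19 positive and 4 negative. Beside CHIR 2 it was -0.10, with 8 positive and 11 negative. A test of FZD6 agonist 2 and 3 against the single library CHIR 2, described further on, called 3 of 20 lower and 1 higher, where 3.01% and 5.47% of all genes were called. Axin2, Tcf7 and Lgr5 were lower there, at log2 fold changes of -1.88, -1.92 and -3.24 (adjusted p 0.0135, 0.00859 and 0.0114), and Bambi was higher, at 0.57 (adjusted p 0.0368).

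Axin2, a scaffold of the destruction complex and the standard readout of beta-catenin activity, had 2.38, 9.43 and 1.55 CPM with CHIR and 1.09, 2.90 and 2.12 CPM with the agonist. CHIR 2 stood above the rest, and the remaining 5 libraries overlapped between the groups. Its fitted log2 fold change was -1.13 (SE 0.950, adjusted p 0.872) for 3 against 3 and -1.41 (SE 0.392, adjusted p 0.068) in the matched test, and 0.05 for 3 against 3 without CHIR 2. Without CHIR 3 or without FZD6 agonist 1, which leaves the CHIR 2 reading to decide, the matched fit gave -1.88 with adjusted p values of 0.0145 and 0.0143. Lgr5, a receptor for R-spondins and a target gene, had 7.74, 10.1 and 1.06 CPM against 2.69, 0.855 and 1.22 CPM. Its readings were of opposite sign, at 1.35 beside CHIR 3 and -3.27 beside CHIR 2, and this difference was called (adjusted p 0.0387). Tcf7, a transcription factor that partners with beta-catenin, had 4.49, 8.49 and 1.25 CPM against 3.44, 1.85 and 2.54 CPM. Its readings of 1.47 and -1.95 also differed (adjusted p 0.0133).

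Nkd1, which encodes an inhibitor of Dishevelled and is also a known target, ran the other way. It had 4.81, 6.57 and 8.81 CPM with CHIR and 12.2, 32.0 and 28.4 CPM with the agonist, so that the groups did not overlap. The fitted log2 fold change was 1.85 (SE 0.400) with an adjusted p of 0.556 for 3 against 3, and 0.154 in the matched test. Without FZD6 agonist 1 the 3 against 3 fit gave 2.17 at an adjusted p of 0.0417. Wif1, a secreted Wnt inhibitor, reached 0, 0.110 and 0.0235 CPM in the CHIR libraries and 0.544, 0.499 and 0.968 CPM in the agonist libraries, without overlap and near the limit of detection (adjusted p 0.0543 in the matched test). Notum, which removes lipid from Wnt ligands, had 0.164, 0.309 and 0.658 CPM against 1.79, 0.546 and 0.623 CPM. Sp5, a transcription factor and feedback repressor, had 34.0, 124 and 32.4 CPM against 37.2, 109 and 102 CPM, and Rnf43, the ligase that removes Frizzled receptors from the surface, had 13.3, 69.1 and 25.5 CPM against 28.7, 53.6 and 53.5 CPM. Both overlapped between the groups.

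**Figure D3:**
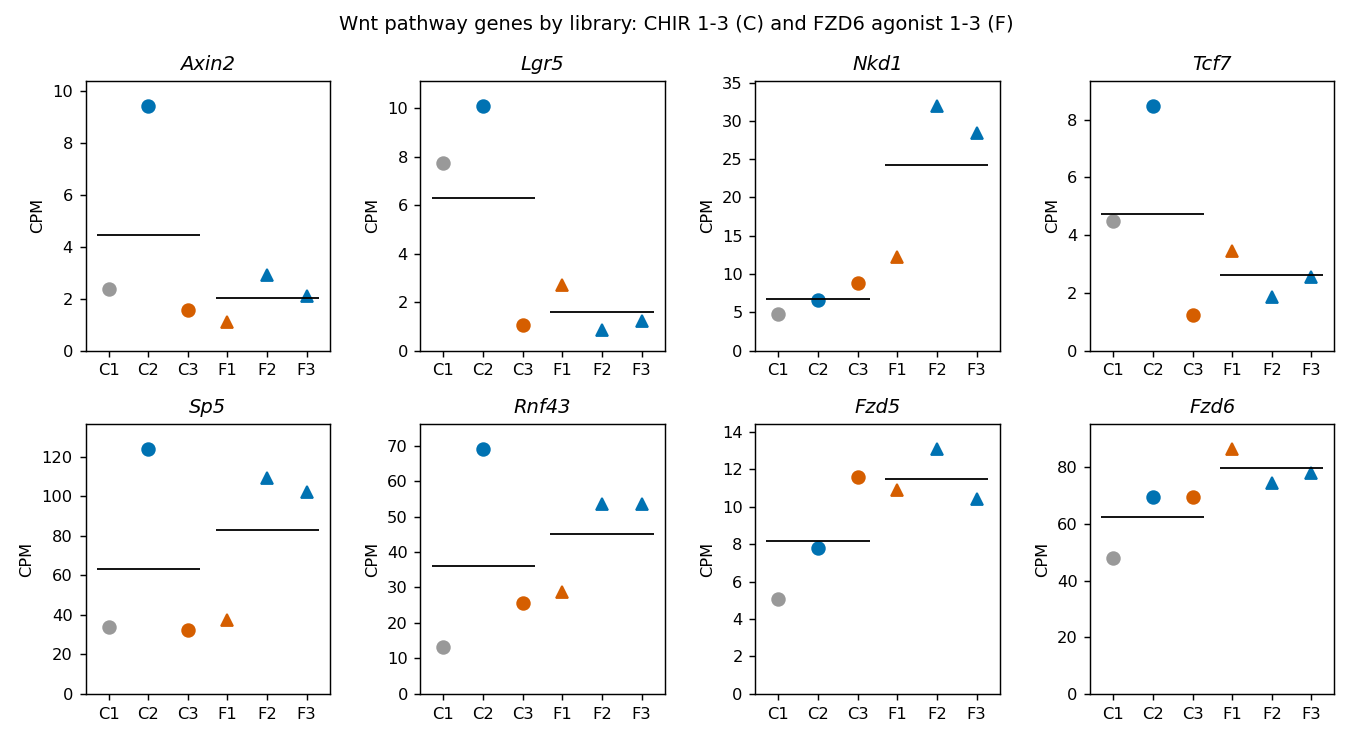
Level of 8 genes of the Wnt pathway in CPM (y axes, linear, from 0) in each of the 6 libraries (x axes), with lines at the group means and the same colours as in the other plots by library. Nkd1 is the plotted target gene whose groups do not overlap, and Axin2, Lgr5 and Tcf7 are highest in CHIR 2, at 9.43, 10.1 and 8.49 CPM.

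Fzd6 (chromosome 15, 39006034 to 39038188, plus strand), which encodes the receptor the agonist is named for, had 48.1, 69.7 and 69.4 CPM with CHIR and 86.6, 74.6 and 77.9 CPM with the agonist. Every agonist library was above every CHIR library, and the test did not call it, at a log2 fold change of 0.35 (SE 0.408, adjusted p 0.916). Fzd5 had 5.06, 7.78 and 11.6 CPM against 10.9, 13.1 and 10.4 CPM. None of the 18 measured receptors and co-receptors was called in the matched test, and 7 had an unadjusted p under 0.05, all higher. In the test of the CHIR 2 reading alone the calls differed. Of the 18 receptors and co-receptors 4 were called higher there and 1 lower. Fzd7, Fzd8, Fzd1 and Kremen1 were higher, at log2 fold changes of 0.88, 0.98, 1.14 and 0.42 (adjusted p 0.000972, 0.00284, 0.0394 and 0.04), and Lgr5 was lower, at -3.24 (adjusted p 0.0114). The difference between the readings was called for Fzd7 and Fzd8, at adjusted p values of 0.0259 and 0.0427.

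Of 10 measured ligands and secretion genes, Wnt7a was called in the matched test. This ligand had 1.23, 2.6 and 9.28 CPM with CHIR and 13.9, 7.77 and 6.27 CPM with the agonist, and it rose by 1.03 on the log2 scale (SE 0.228, adjusted p 0.0281). It was no longer called without CHIR 2, FZD6 agonist 2 or FZD6 agonist 3, at adjusted p values of 0.342, 0.0819 and 0.0687. Wls, which carries Wnt ligands to the surface, had 275, 343 and 472 CPM against 478, 551 and 538 CPM, with no overlap and an adjusted p of 0.136.

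In the destruction complex and its partners, 2 of 21 genes rose in the matched test and 0 fell. Apc, the scaffold that holds beta-catenin in the complex, had 85.7, 107 and 57.4 CPM with CHIR and 94.2, 152 and 161 CPM with the agonist. Its CHIR 3 and CHIR 2 readings were alike, at log2 ratios of 0.72 and 0.55, and Apc rose by 0.62 (SE 0.0875, adjusted p 0.00416). Ctnnb1, which encodes beta-catenin, had 413, 695 and 553 CPM against 799, 882 and 904 CPM, with every agonist library above every CHIR library, and rose by 0.43 (SE 0.0841, adjusted p 0.0155). Apc stayed called without any 1 of the 5 libraries, and Ctnnb1 lost the call without FZD6 agonist 3 (adjusted p 0.0538). None of 14 genes of planar cell polarity, the branch in which FZD6 is best known, was called, and 3 higher and 1 lower had an unadjusted p under 0.05. Their median in the matched test was 0.18, with Vangl2 at 1.81, 3.73 and 3.69 CPM against 4.12, 4.73 and 5 CPM (adjusted p 0.422).

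Of the markers of alveolar type 2 cells 6 of 22 rose in the matched test, where 1.70% of all genes did, and 0 fell. Of the 22, 21 were fitted higher, against 49.9% of all genes, and the median was 0.53. The 1 marker fitted lower was Bex2, at 31.3, 23.6 and 16.4 CPM with CHIR and 14.9, 5.82 and 5.6 CPM with the agonist. Every agonist library was below every CHIR library for Bex2, and it was not called (-1.27, adjusted p 0.0781 in the matched test). In 15 of the 22 the agonist libraries were higher in both readings, against 4397 of 16797 over all genes. In the CHIR 3 reading 16 were higher and 6 lower, and in the CHIR 2 reading 20 were higher and 2 lower. Single members differed in size between the readings. The fitted difference, CHIR 3 reading minus CHIR 2 reading, was -1.88 for Napsa, -1.09 for Chil1, -0.71 for Muc1 and -0.69 for Nkx2-1, and 1.90 for Bex2. Lyz2, the lysozyme of type 2 cells and macrophages, had 1350, 748 and 257 CPM with CHIR and 793, 2010 and 2010 CPM with the agonist. FZD6 agonist 1 was above CHIR 3, at a log2 ratio of 1.63, and below CHIR 1. Lyz2 rose by 1.51 on the log2 scale (SE 0.114, adjusted p 2.25e-05) and stayed called without any 1 of the 5 libraries. Reads of Lyz2 and its near-identical neighbour Lyz1 may have been split by the counting. Of the 14 haematopoietic markers, 12 were under 1 CPM in all 6 libraries, and 5 of these were at 0.

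Abca3, the pump that loads surfactant lipid into lamellar bodies, had 190, 1140 and 920 CPM against 1390, 1560 and 1540 CPM and rose by 0.51 (SE 0.121, adjusted p 0.0383). Muc1, a surface mucin, had 1030, 1480 and 474 CPM against 571, 2990 and 2850 CPM and rose by 0.67 (adjusted p 0.0206). Sftpd, a surfactant protein of innate defence, and the chitinase-like Chil1 rose by 0.43 and 0.70, and the chloride and iodide carrier Slc26a4 by 0.64. Chil1 had 7100, 4770 and 6190 CPM against 6580, 10900 and 10700 CPM, so that FZD6 agonist 1 lay inside the CHIR range. Its log2 ratio was 0.09 in the CHIR 3 reading and 1.18 in the CHIR 2 reading. Napsa, the protease that matures surfactant proteins, had 438, 352 and 948 CPM against 1230, 1730 and 1640 CPM. Its groups did not overlap, and it was not called, at an adjusted p of 0.0736 in the matched test. The leading surfactant gene Sftpc had 93200, 36700 and 97700 CPM against 97800, 48400 and 51700 CPM, with an adjusted p of 0.412. Abca3 was not called when any 1 of the 5 libraries was left out, at adjusted p values of 0.0647 to 0.0968. Muc1 and Slc26a4 were not called without CHIR 2 (adjusted p 0.379 and 0.18).

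Of the lists with 9 or more tested members, markers of alveolar type 1 cells had the readings furthest apart. All 20 were fitted higher in the matched test, against 49.9% of all genes, with a median of 0.96. Of the 20, 2 were called higher, Pdpn and Gprc5a, where 1.70% of all genes were. Their summed level was 5400, 5850 and 9590 CPM with CHIR and 9960, 11000 and 10800 CPM with the agonist, so that the sums did not overlap. The median log2 ratio was 0.09 in the CHIR 3 reading and 1.72 in the CHIR 2 reading, and 12 of the 20 had an unadjusted p under 0.05 for the difference, as did 19.0% of all genes (10.6% with the CHIR 3 reading higher and 8.41% with it lower). After adjustment the difference was called for 2 of the 20.

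Pdpn, the podoplanin of type 1 cells, had 0.711, 2.73 and 1.08 CPM with CHIR and 2.04, 15 and 10.9 CPM with the agonist. It rose by 1.77 on the log2 scale (SE 0.305, adjusted p 0.0111). Without CHIR 2 its log2 fold change was 0.92 at an adjusted p of 0.287, and that of Gprc5a was 0.29 at 0.377. Hopx, a homeodomain protein of type 1 cells, had 48.4, 37.8 and 66.6 CPM against 51.3, 151 and 150 CPM. FZD6 agonist 1 lay inside the CHIR range and the other agonist libraries lay far above it, and the readings of -0.38 and 1.99 differed at an adjusted p of 0.0145. Ager, a receptor abundant on type 1 cells, had 572, 428 and 1010 CPM against 1100, 1780 and 1680 CPM, without overlap and without a call (adjusted p 0.157 in the matched test). Without CHIR 3 or FZD6 agonist 1 the matched fit of Hopx gave 2.02, at adjusted p values of 0.00291 and 0.00275. Clic5, a chloride channel protein, had 22.8, 64.6 and 99.0 CPM against 143, 251 and 248 CPM (adjusted p 0.0856).

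Targets of the mechanically regulated factors YAP and TEAD showed a similar order. All 17 were fitted higher in the matched test, against 49.9% of all genes. Of the 17, 5 rose, where 1.70% of all genes did: Ccn2, Birc3, Amotl2, Arhgef17 and Yap1 itself. The median log2 ratio of the list was 0.11 in the CHIR 3 reading and 0.71 in the CHIR 2 reading. Amotl2 stood at 0.11 and 0.73 in the same order. Birc3 was not called when any 1 of the 5 libraries was left out. Ccn2, a secreted matrix protein, had 5.88, 16.1 and 8.88 CPM with CHIR and 13.6, 33.7 and 28.8 CPM with the agonist and rose by 0.81 (SE 0.202, adjusted p 0.0454). Arhgef17, a guanine nucleotide exchange factor, had 8.23, 28.7 and 12.0 CPM against 17.7, 44.4 and 44.0 CPM and rose by 0.60 (adjusted p 0.0134). In both genes CHIR 2 lay above FZD6 agonist 1, so that only the matched pairs separate. Ccn1 had 92.8, 109 and 98.3 CPM against 106, 408 and 402 CPM, and its readings of 0.11 and 1.90 differed at an adjusted p of 0.0256. Without CHIR 2, 1 of the 4 refitted genes of this list stayed called, namely Yap1 (adjusted p 0.0354).

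**Figure D4:**
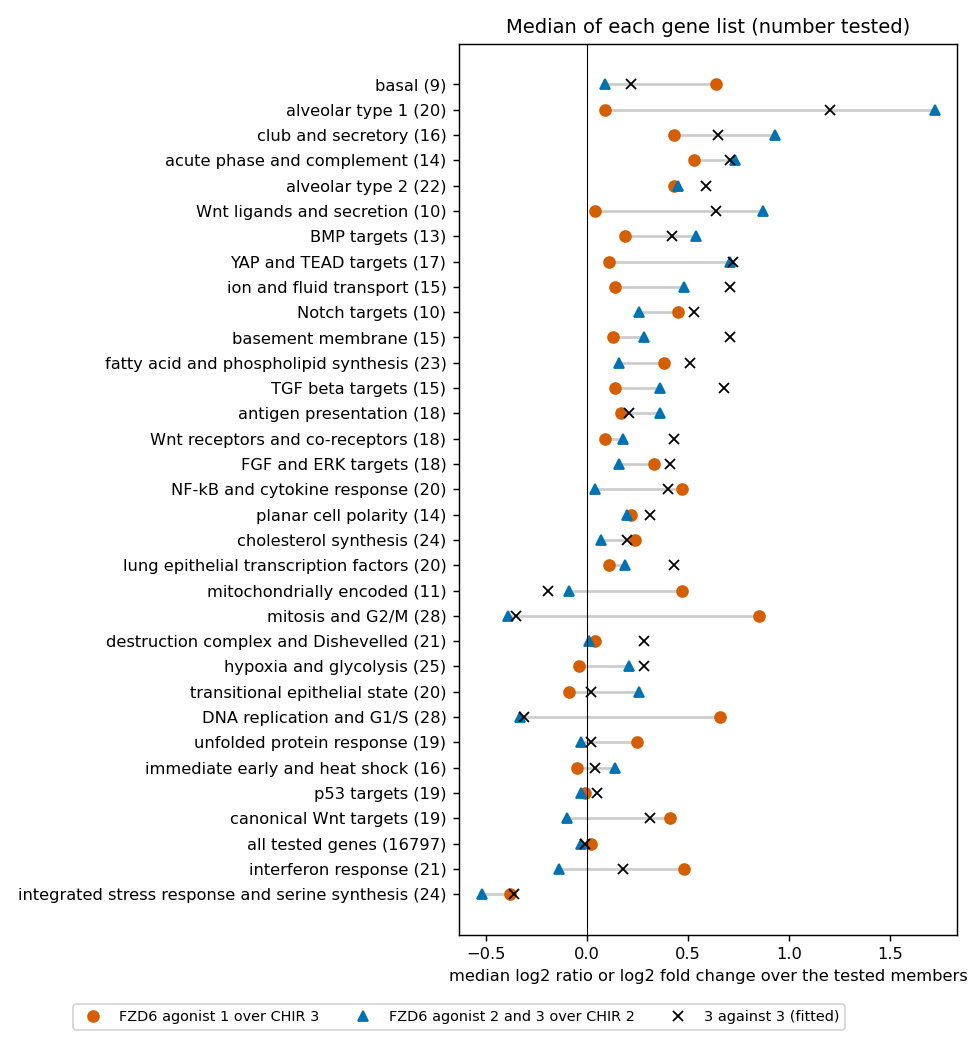
Median log2 ratio of the tested members of each gene list with 9 or more tested members (x axis, log2; number tested in brackets) in the CHIR 3 reading (circles) and the CHIR 2 reading (triangles), with the median fitted log2 fold change of 3 against 3 as a cross and a grey line joining both readings. Alveolar type 1 markers lie at 0.09 and 1.72, mitosis genes at 0.85 and -0.39, and the integrated stress response and serine synthesis at -0.38 and -0.52.

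Genes of cell division had readings of opposite sign. All 28 genes of mitosis and G2/M were higher in FZD6 agonist 1 than in CHIR 3, and all 28 were lower in the mean of FZD6 agonist 2 and 3 than in CHIR 2, although Cdc20 had 375 CPM in CHIR 2 against 395 and 350 CPM. The median log2 ratios were 0.85 and -0.39. The difference was called for 18 of the 28, and the matched test called none, with 0 at an unadjusted p under 0.05. Mki67, the proliferation marker Ki-67, had 207, 189 and 15.3 CPM with CHIR and 36.5, 163 and 126 CPM with the agonist. CHIR 3 and FZD6 agonist 1 were the lowest 2 libraries, and the readings of 1.25 and -0.39 differed at an adjusted p of 0.0245. Cenpf, a kinetochore protein, had 99.5, 80.7 and 4.84 CPM against 16.5, 69.5 and 56.5 CPM (adjusted p of the difference 0.00502). DNA replication and G1/S genes had medians of 0.66 and -0.33, and the difference was called for 7 of 28, among them the helicase subunit Mcm6 (adjusted p 0.0333). In the same 2 libraries the club and secretory markers were highest, and their part in these differences was not tested.

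**Figure D5:**
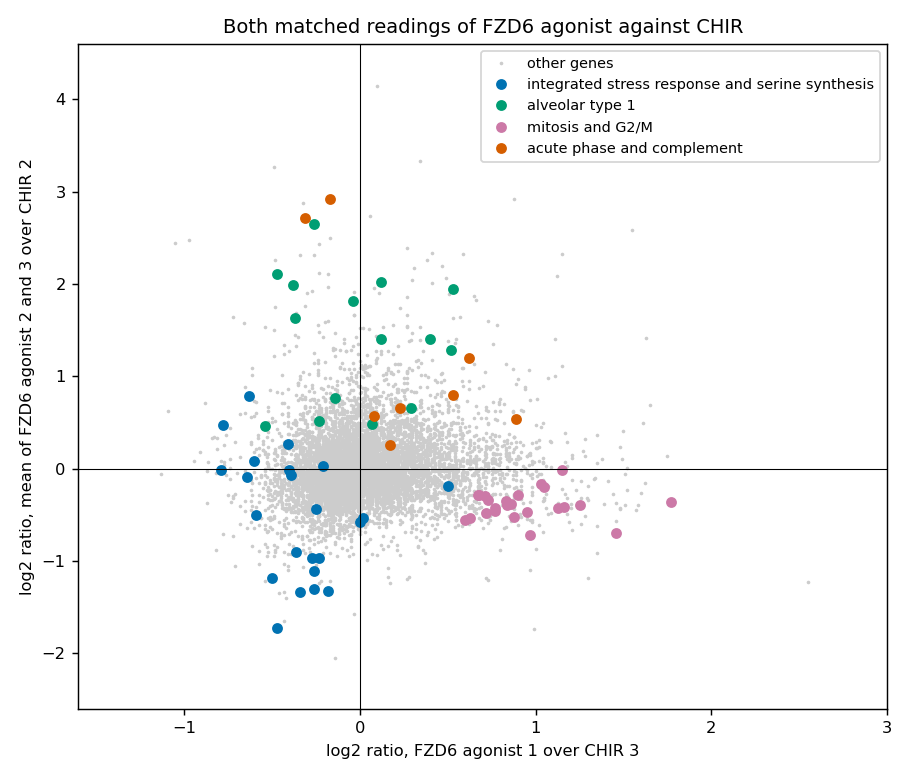
Log2 ratio of FZD6 agonist 1 over CHIR 3 (x axis) against that of the mean of FZD6 agonist 2 and 3 over CHIR 2 (y axis) for 8618 genes with 10 CPM or more in the higher library of both readings, with 4 gene lists in colour. Mitosis genes lie to the right and below 0, alveolar type 1 markers mostly above 0 with little spread to either side, and most genes of the integrated stress response and serine synthesis to the left and below 0.

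Acute phase and complement genes were higher in both readings for 11 of the 14 measured, against 4397 of 16797 over all genes. Of the 14, 5 rose in the matched test, where 1.70% of all genes did, and the median of the list was 0.69. In the CHIR 3 reading 11 were higher and 3 lower, and in the CHIR 2 reading all 14 were higher. Cp, the copper carrier ceruloplasmin, had 2.08, 1.63 and 63.6 CPM with CHIR and 175, 5.70 and 4.80 CPM with the agonist. The libraries with airway genes stood far above the others, and within each pair the agonist was higher. Cp rose by 1.56 (SE 0.206, adjusted p 0.00281). Lbp, which binds bacterial lipopolysaccharide, had 58.2, 72.2 and 73.8 CPM against 113, 167 and 164 CPM, without overlap, and rose by 0.94 (SE 0.118, adjusted p 0.00229). Cp and Lbp stayed called without any 1 of the 5 libraries. Complement factors C3 and Cfb rose by 0.47 and 0.68, with adjusted p values of 0.021 and 0.0111, and neither was called without CHIR 2 (0.374 and 0.133). Lcn2, an iron-sequestering defence protein, had 854, 1420 and 1280 CPM against 2360, 2160 and 1980 CPM and rose by 0.69 (adjusted p 0.0341). Lcn2 was not called when any 1 of the 5 libraries was left out, at adjusted p values of 0.0652 to 0.11. Itih4 was higher in the CHIR 2 reading alone, at 2.92 against -0.17 in the CHIR 3 reading, and this difference was called (adjusted p 0.00154).

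Among NF-kB and cytokine response genes, 3 of 20 rose in the matched test and 0 fell, where 1.70% of all genes rose. Cxcl5 (chromosome 5, 90759360 to 90761624, plus strand), a neutrophil chemokine, had 206, 206 and 129 CPM with CHIR and 248, 381 and 366 CPM with the agonist. Every agonist library was above every CHIR library, and the readings were alike at 0.94 and 0.86. Cxcl5 rose by 0.89 (SE 0.0897, adjusted p 0.000517) and stayed called without any 1 of the 5 libraries. Cxcl3, a related chemokine, had 31.5, 57.8 and 35.5 CPM against 52.4, 91.4 and 93.0 CPM and rose by 0.63 (adjusted p 0.0111), and it was not called without CHIR 2 (adjusted p 0.0875). None of 21 interferon response genes was called, with 1 higher and 1 lower at an unadjusted p under 0.05, and none of 18 antigen presentation genes, with 4 and 1. Irf7, a factor induced by interferon, had 2.38, 3.28 and 1.53 CPM against 4.43, 5.01 and 4.04 CPM without overlap (adjusted p 0.0682).

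In cholesterol synthesis 2 of 24 rose in the matched test, the enzymes Hmgcs1 and Mvd, by 0.47 and 0.39 (adjusted p 0.0157 and 0.0456). In fatty acid and phospholipid synthesis 2 of 23 rose. Lpin1, a phosphatidate phosphatase, had 19.1, 44.4 and 33.2 CPM against 50, 94.1 and 95.0 CPM with no overlap and rose by 0.87 (SE 0.160, adjusted p 0.0138). Elovl5, a fatty acid elongase, rose by 0.41 (adjusted p 0.0432). Without CHIR 2 none of these 4 genes was called, at adjusted p values of 0.158 to 0.739.

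Single members were called on further signalling lists. Bmp4, a BMP ligand, had 255, 166 and 136 CPM with CHIR and 155, 260 and 266 CPM with the agonist and rose by 0.46 (adjusted p 0.0427), 1 of 13 BMP genes. Skil, a feedback repressor of TGF beta signalling, had 26.0, 39.7 and 28.3 CPM against 40.1, 59.7 and 62.8 CPM and rose by 0.57 (adjusted p 0.0271), 1 of 15. Fgfr2, the receptor for FGFs in lung epithelium, had 675, 947 and 842 CPM against 1130, 1140 and 1140 CPM and rose by 0.33 (adjusted p 0.0388), 1 of 18. None of the 3 was called without CHIR 2, at adjusted p values of 0.559, 0.203 and 0.0549, and Fgfr2 was not called without any of the other libraries either. None of 10 Notch genes was called, with Notch1 at 1.12, 3.22 and 2.09 CPM against 5.85, 7.62 and 5.03 CPM (adjusted p 0.0555).

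In ion and fluid transport 2 of 15 rose. Aqp4, a water channel, was near the limit of detection with CHIR, at 0.0274, 0.0882 and 0.658 CPM, and had 7.97, 1.40 and 0.899 CPM with the agonist. The level in CHIR 1 and CHIR 2 was that of a few counts. It rose by 3.61 on the log2 scale (SE 0.588, adjusted p 0.00936) and stayed called without any 1 of the 5 libraries. Kcnj15, a potassium channel, had 62.9, 80.8 and 206 CPM against 278, 142 and 135 CPM and rose by 0.62 (adjusted p 0.0111). It was not called without CHIR 2 (adjusted p 0.147). Of 16 immediate early and heat shock genes 1 was called, the mitochondrial chaperone Hspd1, with 31.2, 25.3 and 33.8 CPM against 26.1, 13.8 and 13.9 CPM, which fell by 0.66 (adjusted p 0.0155, and 0.331 without CHIR 2). Of 19 p53 targets Trp53inp1 rose by 0.90 (adjusted p 0.0494) and Gdf15 fell, as given above. Trp53inp1 was not called when any 1 of the 5 libraries was left out, at adjusted p values of 0.063 to 0.364. No member was called among 19 genes of the unfolded protein response, 25 of hypoxia and glycolysis, 11 encoded by mitochondria, 15 of the basement membrane or 20 lung epithelial transcription factors. Nkx2-1, the lineage factor of lung epithelium, had 101, 401 and 398 CPM against 334, 534 and 556 CPM (adjusted p 0.6), and Foxa2 had 94.1, 122 and 140 CPM against 142, 163 and 181 CPM without overlap (adjusted p 0.129).

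Other genes with steep changes in the matched test belong to no single group. On the higher side Nnat, the imprinted gene of neuronatin, had 24.5, 21.8 and 7.82 CPM with CHIR and 17.1, 96.5 and 89.7 CPM with the agonist and rose by 1.70 (adjusted p 0.0199). In Nnat FZD6 agonist 1 lay inside the CHIR range and above its counterpart CHIR 3. Mmp14, a membrane-bound metalloproteinase, had 1.45, 1.63 and 8.01 CPM against 14.8, 14.2 and 10.5 CPM and rose by 1.90 (adjusted p 0.0298). Nrp2, a co-receptor for semaphorins, had 1.45, 3.17 and 3.29 CPM against 8.93, 13.9 and 12.3 CPM and rose by 1.78 (adjusted p 0.0353). Both separated the groups without overlap. Klhl24, a ubiquitin ligase adaptor, had 22.0, 22.9 and 47.0 CPM against 70.9, 114 and 116 CPM, also without overlap, and rose by 1.55 (adjusted p 0.0436, and 0.33 without CHIR 2). Its readings of 0.59 and 2.33 differed at an adjusted p of 0.0236. Tuba8, whose levels are given above, rose by 3.35 (SE 0.555, adjusted p 0.0112, and 0.136 without CHIR 2). Nbl1, a BMP antagonist, and Arhgap22, a regulator of Rac, were low in every library and rose by 1.60 and 1.69 (adjusted p 0.044 and 0.034), and without CHIR 2 these were 0.84 and 0.44 (adjusted p 0.474 and 0.662). Without CHIR 2, Nnat, Mmp14 and Nrp2 were not called, at adjusted p values of 0.277, 0.235 and 0.305.

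On the lower side stood the host genes of small nucleolar RNAs Snhg20 and Snhg17. Snhg20 had 29.4, 20.4 and 9.89 CPM with CHIR and 4.79, 9.90 and 10.8 CPM with the agonist. The readings were alike at -1.05 and -0.98, and Snhg20 fell by 1.01 (SE 0.140, adjusted p 0.0038) and stayed called without any 1 of the 5 libraries. Snhg17 had 12.6, 16.9 and 10 CPM against 6.11, 7.51 and 8.74 CPM and fell by 0.91 (adjusted p 0.0252, and 0.279 without CHIR 2). Morn4 had 7.82, 7.78 and 8.04 CPM against 4.17, 4.77 and 3.76 CPM, without overlap, and fell by 0.90 (adjusted p 0.0152, and 0.0961 without CHIR 2). Steap1, a membrane protein, had 53.1, 28.2 and 32.0 CPM against 22.1, 11.9 and 12.5 CPM and fell by 0.93 (adjusted p 0.0188). Without CHIR 2 its log2 fold change was -0.54, and it was not called. Hpdl, an enzyme related to hydroxyphenylpyruvate dioxygenase, had 4.57, 5.91 and 14.2 CPM against 6.24, 0.926 and 1.5 CPM and fell by 1.79 (adjusted p 0.0111). Pitpnc1, a lipid transfer protein, Tesc, a calcium-binding protein, Mtfp1, a mitochondrial fission protein, and the deiminase Padi2 fell by 1.09, 0.98, 0.97 and 0.94, and their adjusted p values of 0.0155 to 0.0302 became 0.377 to 0.535 without CHIR 2. Use of strand in the counting is not stated, so reads of these RNA genes cannot be told apart from those of any overlapping gene.

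A change of 2-fold or more in both readings, among 8618 genes with 10 CPM in the higher library of each, was seen for 6 genes on the higher side and 0 on the lower. In the CHIR 3 reading 1.28% of these genes were 2-fold higher and 0.0348% lower, and in the CHIR 2 reading 2.32% and 0.406%. Of the 6 genes, Lyz2, Crebrf and Nnat were described above. Cd177, a surface protein known from neutrophils, had 1170, 1230 and 1290 CPM with CHIR and 2780, 3170 and 3320 CPM with the agonist, and it rose by 1.27 in the matched test (SE 0.153, adjusted p 0.00206). Its groups were separated by more than the whole range within either of them. Ang, a secreted ribonuclease, had 24.3, 13.2 and 20.2 CPM against 44.7, 23.5 and 33.4 CPM and rose by 1.12 (adjusted p 0.017). Opposite changes of 2-fold were seen for 3 genes.

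FZD6 agonist 2 and 3 were also tested against CHIR 2 without the libraries that stand apart, in a model of 14 libraries that assumes the lone CHIR 2 to vary like the other groups. This called 1478 of 17433 genes (8.48%), 954 higher (5.47%) and 524 lower (3.01%), and 12.4% were higher and 9.40% lower at an unadjusted p under 0.05. Since CHIR 2 is 1 library, these values compare the agonist libraries with that library. Itgb3, an integrin chain, was at 1.48 CPM in CHIR 2 and at 20.5 and 20.4 CPM in FZD6 agonist 2 and 3, a log2 fold change of 3.82. Muc5b, a secreted airway mucin, was at 0.595 CPM in CHIR 2 and at 13.1 and 8.07 CPM (log2 fold change 4.17, adjusted p 0.0323). Muc5b had 16.3 CPM in CHIR 3 and 17.4 CPM in FZD6 agonist 1. Markers of club and secretory cells summed to 119 CPM in CHIR 2 and to 436 and 320 CPM in these agonist libraries, and their part in the result was not tested. The peptidase Klk10, the extracellular superoxide dismutase Sod3 and the aldo-keto reductase Akr1c14 were called higher as well, at log2 fold changes of 3.96, 3.73 and 3.34, from 0.551, 0.772 and 1.5 CPM in CHIR 2. Muc5b and Klk10 were not called without FZD6 agonist 2 or without FZD6 agonist 3, at adjusted p values of up to 0.0978 and 0.108, and Sod3 was not called in 1 of these fits (0.0574). Wnt4, a ligand, was at 4.94 CPM in CHIR 2 and at 19.7 and 19.0 CPM (2.00, adjusted p 5.23e-05), while CHIR 3 and FZD6 agonist 1 had 33.8 and 29.9 CPM. On the lower side Bex2, a small adaptor protein, was at 23.6 CPM in CHIR 2 and at 5.82 and 5.60 CPM (log2 fold change -2.02, adjusted p 0.00105). Ly6a, the surface protein Sca-1, was at 27.2 CPM and at 8.95 and 7.38 CPM (-1.71, adjusted p 0.00146). The adhesion-type protein Tmem132d and the prokineticin receptor Prokr1 fell from 30.0 and 17.3 CPM, by 2.18 and 1.54, and Tmem132d was not called without either agonist library (adjusted p up to 0.121). Ly6a ran the other way in the CHIR 3 reading, from 45.5 to 90.1 CPM, and the difference was called (adjusted p 0.00439).

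FZD6 agonist 1 beside CHIR 3 compares 2 libraries with no spread of their own. The matched fit without CHIR 2 gives this pair p values from the spread of other groups and called 433 genes, which compares these libraries and not the treatments. The intervals below are exact 95% intervals for counting error only. Of 9004 genes with 10 CPM or more in the higher library, 126 (1.40%) were at least 2-fold higher in the agonist library and 13 (0.144%) at least 2-fold lower. Reg3g, an antibacterial lectin of airway epithelium, was at 208 CPM against 26.5 CPM, a ratio of 7.86 (7.38 to 8.37). It had no counts in CHIR 1, CHIR 2, FZD6 agonist 2 and FZD6 agonist 3, where 3 counts would be 0.0661 to 0.0821 CPM, so its call in the matched test (adjusted p 0.00792) rests on these 2 libraries. Aqp3, a water and glycerol channel found in basal cells, was at 148 against 27.4 CPM, a ratio of 5.41 (5.08 to 5.77). Basal cell markers together summed to 180 CPM in FZD6 agonist 1 and 47.8 CPM in CHIR 3, and to 1.45 to 15.6 CPM in the other 4 libraries. Trp63, the defining transcription factor of basal cells, was at 8.00 and 1.17 CPM in these 2 libraries and at 0 in the others. The part of these cells in the ratios was not tested. Pthlh, a secreted hormone-like factor, was at 129 against 22.2 CPM (ratio 5.84, 5.45 to 6.27), but CHIR 1 and CHIR 2 had 280 and 121 CPM. Mcpt2, Galnt6 and Trpv4 had ratios of 4.99, 4.61 and 4.20. On the lower side Retnla, a secreted resistin-like protein, was at 3.03 against 12.8 CPM, a ratio of 0.236 (0.192 to 0.289). Phospho1, Zfp628, Hpdl and Trim47 had ratios of 0.355, 0.381, 0.440 and 0.465. Epn1, an endocytic adaptor, was at 55.8 against 122 CPM (0.458, 0.435 to 0.482).

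Markers of other cell types were low in all 6 libraries. The sum over 13 mesenchymal markers reached 2.04 CPM at most, with 6 of them at 0 throughout. The 10 endothelial markers summed to 14.3 to 33.1 CPM, of which Egfl7 made up 14.1 to 33.0 CPM. Ciliated markers summed to 2.67 to 10.1 CPM and neuroendocrine markers to 1.48 to 2.05 CPM. None of these 4 sums separated the groups. Gastric and gut markers summed to 2.52 to 7.35 CPM, with 0 of 8 tested members called. In the club and secretory list 1 of 16 rose, Reg3g, in the basal list 1 of 9, Pdpn, and among 20 genes of the transitional epithelial state 1, Lcn2. Scgb1a1, the defining club cell gene, had 0.246, 0.0882 and 50.7 CPM with CHIR and 79.8, 0.214 and 0.300 CPM with the agonist.

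Levels in the other 4 groups are given for Crebrf, Cxcl5, Asns and Nkd1 without a test, because those groups share the CHIR controls in any comparison with them. Crebrf ran from 9.93 to 12.2 CPM after 24 h of CHIR withdrawal, from 28.2 to 35.0 CPM after 48 h, from 21.3 to 27.1 CPM with Wnt and from 28.6 to 39.0 CPM with the FZD5 agonist. The FZD6 agonist libraries ran from 23.8 to 31.0 CPM and the CHIR libraries from 5.89 to 10.7 CPM. Cxcl5 ran from 90.8 to 129 CPM after 24 h of withdrawal and from 288 to 326, 337 to 366 and 333 to 401 CPM in the same order of the remaining groups. Asns ran from 201 to 222 CPM after 24 h and from 61.2 to 69.2, 60.9 to 68.8 and 78.3 to 135 CPM in the others. Nkd1 ran from 14 to 27.9 CPM after 24 h and from 30.6 to 67.8, 48.7 to 80.9 and 33.8 to 45.8 CPM in the others, above all 3 CHIR libraries throughout.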

How the data were processed

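RNA was prepared with an RNeasy-type column kit and a TruSeq Stranded Total RNA kit, per the labels' protocols. The deposited tables hold whole-number read counts per gene and RPKM values that the authors computed. The submitters' processing notes name GSNAP and GRCm38. No source used here names the counting tool, its annotation or its use of strand, and antisense, overlapping and near-identical genes were not told apart. The deposited RPKM values were used only to recover the library totals, of which 11.7% to 15.5% lay outside gene counts in the 6 libraries. Symbols and 1-based coordinates come from GENCODE M21 (GRCm38), where 99.7% of identifiers matched.

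The deposited counts were fitted with edgeR 4.0.16 (R 4.3.3; TMM factors, low-count filter, quasi-likelihood test, Benjamini-Hochberg adjustment over all tested genes). The 3 against 3 contrast used all 18 libraries. The matched contrast used 16, without CHIR 1 and 24 h withdrawal 2, with a term for CHIR 3 and FZD6 agonist 1. FZD6 agonist 2 and 3 against CHIR 2 used 14. The difference between the readings was an interaction term. For FZD6 agonist 1 beside CHIR 3 counts gave ratios with exact 95% intervals. A gene's CPM used TMM-scaled totals. The 3 against 3, matched and 14-library tests were checked on simulated counts with the same spread for every gene, and the interaction test was not. Alternatives used DESeq2 1.42.0, limma 3.58.1, other scalings, filters and library sets, a replicate block and leaving out each library.

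Genes were named by size of change among called genes with no overlap and a mean log2 CPM of at least 2 (up to 12 each way, filled to 6 by p where fewer were called, or 6 each way for the CHIR 2 reading, and the 6 highest and lowest ratios for the CHIR 3 reading), plus up to 4 members of each of 38 lists with the smallest p and a set of Wnt and lineage genes. Slc7a5, Atf4, Ddit3, Slc7a11, Sftpd, Cd177 and Ang were named after their values were seen. The libraries compared, the lists and the tests were chosen with earlier results of these data known. A few genes that the rule would name are not reported here.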

Additional observations from a re-analysis of the deposited data

Results flagged for a closer look

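The difference between the readings (log2 ratio beside CHIR 3 minus that beside CHIR 2) was called by the interaction test in edgeR for 31 genes, which are those named in the report and Gramd2. It was positive for Lgr5 (4.62), Tcf7 (3.41), Mcpt2 (3.2), Ly6a (2.72), Cenpf (2.13), Bex2 (1.90), Mki67 (1.64), Phgdh (1.25), Psph (1.14), Mcm6 (1.05) and Shmt2 (1.04). It was negative for Itgb3 (-3.54), Itih4 (-3.09), Hopx (-2.37), Arhgap22 (-2.16), Wnt4 (-2.15), Mmp14 (-2.04), Kcne2 (-1.94), Napsa (-1.88), Ccn1 (-1.80), Klhl24 (-1.74), Gramd2 (-1.59), Crebrf (-1.18), Chil1 (-1.09), Epn1 (-1.06), Fzd8 (-0.99), Fzd7 (-0.89), Muc1 (-0.71), Nkx2-1 (-0.69), Amotl2 (-0.61) and Elovl5 (-0.58).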

How the results depend on the processing

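For 3 against 3 (1 gene called) the count was 69 with DESeq2 and 24 with limma voom, 6 with an airway term over 18 libraries, and 0 with no filter, with only the FZD6 agonist and CHIR libraries, with a replicate block or against a fold of 1.5. Leaving out 1 library gave 0 to 39. In the matched test (485) it was 1296 with DESeq2, 1517 with no filter, 0 with only the 5 libraries, 199 with a replicate block and 6 when CHIR 1 and 24 h withdrawal 2 were kept. With CHIR 1 kept it was 490, of which 307 were shared. Leaving out 1 library gave 114 to 1499, and without CHIR 2 the 433 calls shared 76 with the 485. For FZD6 agonist 2 and 3 against CHIR 2 (1478) it was 4616 with only these groups and 657 to 681 with 1 agonist library left out. FZD6 agonist 1 beside CHIR 3 (139 genes past 2-fold) gave 227 at 5 CPM and 85 at 20 CPM. The cause of these shifts was not tested. The difference between the readings was computed in 1 fit only. Same-numbered libraries deviated together from their group means for 1 of 3 numbers (correlations -0.24, 0.57 and -0.64). The highest correlation was that of CHIR 3 with FZD6 agonist 1 (0.67). Deviations from means of 3 libraries that hold such a library cannot decide whether the numbers pair the libraries. The replicate block took the edgeR adjusted p of Crebrf for 3 against 3 to 0.0888. Leaving out 1 library turned the direction of 8 values, not counting uncalled values that moved by no more than their SE in the main fit. For 3 against 3 these were Axin2 (-1.54 to 0.05, positive without CHIR 2) and Scgb1a1 (-6.03 to 7.31, negative without FZD6 agonist 1). In the matched test they were Lgr5 (-3.24 to 1.34), Fzd5 (-0.10 to 0.62), Tcf7 (-1.92 to 1.46), Sp5 (-0.21 to 0.20) and Hopx (-0.38 to 2.02), all turned by CHIR 2, and Mki67 (-0.36 to 1.25, negative without CHIR 3 or FZD6 agonist 1). With CHIR 1 and 24 h withdrawal 2 kept, Sp5 was 0.34 and Sftpc -0.27, and with CHIR 1 kept 0.35 and -0.25. None of these values was called with its sign turned. Smaller turns were not counted, as for Mki67 (-0.88 to 0.34 over all settings) and Sftpc (-0.60 to 0.01) in the 3 against 3 fit. Genes under about 0.08 CPM lie within 3 counts, where depth shows no difference.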
